A study of Rattus norvegicus with 6 samples.

Results

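Carboxypeptidase Z (Cpz) and 4 further carboxypeptidase genes, Cpe, Cpd, Cpm and Cpq, were followed on 6 single-colour Agilent rat arrays. The members are the probes whose transcript accession, without its version, belongs to one of these 5 rat symbols in a RefSeq table of assembly GRCr8. Probes were found for 4 of the 5 genes, 1 probe each, among 41012 gene probes. No probe carried an accession of Cpm in that table, so Cpm was not analysed here. The genes were proposed with the LIPUS minus control differences of these same arrays known. Those differences are therefore given for the members as descriptions. Intervals and calls printed for the members come from the fit over all features. They do not count as a test of genes chosen in this way.

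The LIPUS group held 3 samples of rat bone marrow cells (males aged 8 weeks) that were grown in osteogenic culture and received low-intensity pulsed ultrasound. This treatment, LIPUS, reaches the cells as short bursts of sound waves. The control group held 3 samples of the same cells, sex and age without treatment. All 6 samples were taken on day 10 of culture. The labels state no ultrasound settings and do not say if replicates were separate animals or separate cultures. P-values then measure only the spread between these samples, which may be technical. A culture of this kind can hold several cell types, and on such bulk samples fewer cells of a type and less RNA per cell cannot be told apart.

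Carboxypeptidases remove single amino acids from the C-terminal end of a peptide or protein. Cpz, Cpe, Cpd and Cpm encode zinc enzymes of one metallocarboxypeptidase family that take off the basic residues lysine and arginine, often those left behind when a proprotein convertase such as furin has cut. Cpq encodes a glutamate carboxypeptidase of a separate metallopeptidase family. Carboxypeptidase Z is secreted into the extracellular matrix and carries a cysteine-rich domain like that of the Frizzled receptors of Wnt proteins. In chicken embryos it modulates Wnt signalling and skeletal development.

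Between 53.5% and 61.9% of probes were above background on each array, and correlations between arrays were 0.964 to 0.986 across genes, which are not independent replicates. The labels name no slides, and slides were inferred here from the tilt of the scanned grid, which placed control 1 and control 2 on one slide and control 3 with the 3 LIPUS arrays on another. A value labelled "within slide 2" below therefore sets the LIPUS arrays against control 3 alone. Levels are log2 brightness after background correction, relative to the 75th percentile of the same array, so a level of 0 is that percentile. Levels of different genes come from different probes and were not set against each other.

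Cpz, the secreted matrix enzyme, was higher on every LIPUS array than on any control array. Its probe (NM_031766) had a level of 3.36, 3.39 and 2.93 on the LIPUS arrays, against 1.48, 1.59 and 1.38 on the control arrays. LIPUS replicate 3 was the lowest of its group and still lay 1.34 above the highest control array. The means were 3.23 ± 0.26 in LIPUS and 1.48 ± 0.10 in control (SD, n = 3 each), a log2 difference of 1.74 ± 0.18 (SE), or 3.35-fold. Of 21850 genes and unnamed probes tested, 18 had a larger positive difference.

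The same order was visible in the brightness of the spot before any scaling. The Cpz spot had a median brightness of 8529, 7241 and 5723 on the LIPUS arrays and of 2544, 2201 and 2654 on the control arrays, 8.73% to 13.0% of the scanner limit in LIPUS and 3.36% to 4.05% in control. The signal was 83.8 to 114 times the background limit on the LIPUS arrays and 18.7 to 26.3 times on the control arrays, so neither the dim end nor the scanner limit set these values. In the authors' deposited value table, on its own log2 scale, Cpz read 3.28, 3.60 and 3.53 in LIPUS, against 1.76, 1.70 and 1.49 in control. LIPUS replicate 3 was the lowest LIPUS array in the spot tables and not in the value table, while the groups were apart in both. Within slide 2 the difference was 1.85.

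**Figure D1:**
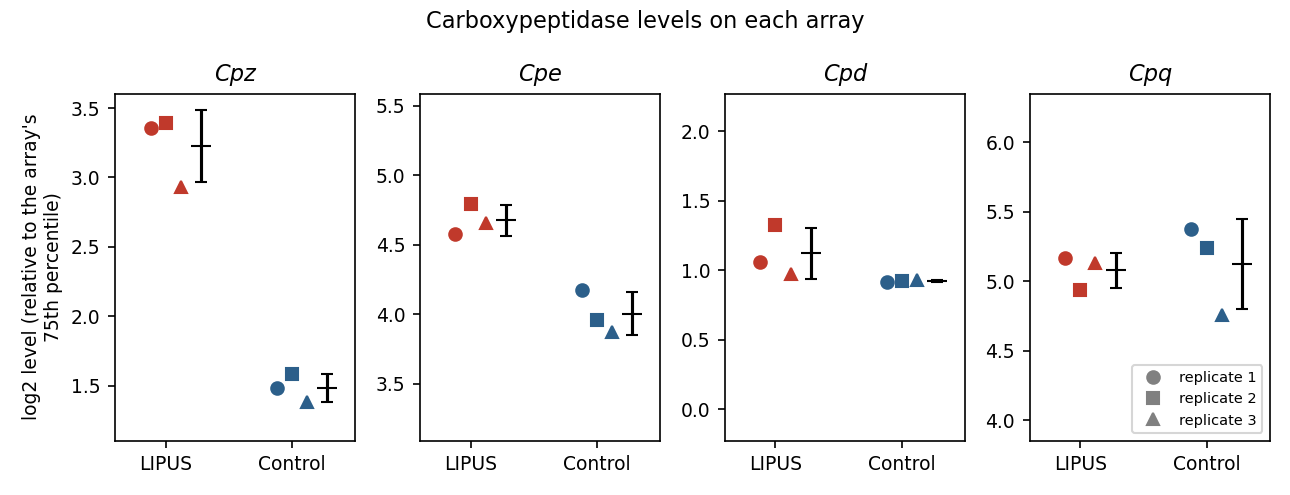
Log2 level of the 4 measured carboxypeptidase genes on each array, relative to the array's 75th percentile, with LIPUS left of control in each panel, a marker for each replicate, and the mean with its SD (n = 3) as a bar beside the points. All panels span the same height. The 3 LIPUS arrays of Cpz lie 1.34 or more above the controls, those of Cpe 0.40 or more, while the groups of Cpd nearly touch and those of Cpq overlap.

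Cpe encodes carboxypeptidase E, which trims the intermediates of peptide hormones and neuropeptides in secretory granules. Its probe (NM_013128) read 4.58, 4.80 and 4.65 on the LIPUS arrays, against 4.17, 3.96 and 3.87 on the control arrays. The groups were apart by 0.40 at their nearest arrays, LIPUS replicate 1 and control replicate 1. The means were 4.677 ± 0.111 in LIPUS and 4.003 ± 0.155 in control (SD, n = 3 each), a log2 difference of 0.67 ± 0.16 (SE), or 1.60-fold, with a 95% interval of 0.31 to 1.04. The authors' deposited value table gave a mean of 4.89 ± 0.18 in LIPUS and 4.27 ± 0.22 in control, and within slide 2 the difference was 0.80.

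Of the members with a probe, Cpe is the only one with an entry in the RefSeq promoter table, so its window alone is shown. The window (GRCr8, plus strand, chr16:29796457-29796756) runs from 250 bases before the gene's start to 50 bases after it. It reads as follows, with a GC box match in capitals.
Cpe: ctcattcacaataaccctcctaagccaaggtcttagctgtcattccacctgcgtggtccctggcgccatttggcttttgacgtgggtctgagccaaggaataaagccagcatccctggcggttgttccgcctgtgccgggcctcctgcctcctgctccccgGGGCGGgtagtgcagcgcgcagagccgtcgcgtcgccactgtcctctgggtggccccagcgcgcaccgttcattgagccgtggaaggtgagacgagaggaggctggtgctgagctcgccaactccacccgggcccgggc
The 5 motifs searched on both strands were the TATA box TATAAA, the GC box GGGCGG, the AP-1 motif TGANTCA, the RUNX motif AACCACA and the TCF/LEF motif CTTTGAA. The GC box was the one match and overlapped no other motif, and 33.1% of all 33469 promoter windows of this length hold it. The TATA box occurs in 14.2% of windows, the AP-1 motif in 7.33%, the RUNX motif in 5.57% and the TCF/LEF motif in 5.40%, and their letters are not in the Cpe window. The window has 64.7% G and C and 22 CpG dinucleotides, against medians of 51.7% and 7 over all windows. A match is a description of the letters and says nothing about binding in these cells.

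Cpd encodes carboxypeptidase D, a membrane enzyme of the trans-Golgi network with several carboxypeptidase domains, which acts on proteins of the constitutive secretory route. Its probe (NM_012836) read 1.06, 1.33 and 0.98 on the LIPUS arrays, against 0.92, 0.92 and 0.93 on the control arrays. The control arrays were nearly equal, and the lowest LIPUS array, replicate 3, lay 0.04 above the highest of them. The means were 1.12 ± 0.18 in LIPUS and 0.92 ± 0.01 in control (SD, n = 3 each), a log2 difference of 0.20 ± 0.16 (SE) with a 95% interval of −0.17 to 0.56.

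Cpq encodes a secreted and lysosomal carboxypeptidase, also called plasma glutamate carboxypeptidase. Its probe (NM_031640) read 5.17, 4.94 and 5.13 on the LIPUS arrays, against 5.37, 5.24 and 4.76 on the control arrays. The groups overlapped, with both the highest and the lowest array in control. The means were 5.08 ± 0.13 in LIPUS and 5.12 ± 0.32 in control (SD, n = 3 each), a log2 difference of −0.05 ± 0.20 (SE) with a 95% interval of −0.48 to 0.39. Control 3 was the lowest array, and within slide 2 the LIPUS mean stood 0.32 above it, the opposite sign. The probe reached at most 58.8% of the scanner limit, so saturation did not hold its values together.

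Each member was read from 1 spot per array. As a gauge of the error of a single spot, 90 other probes with levels of 0 or more were printed 10 times on each array, and the median SD between the 10 spots of a probe was 0.23 to 0.26 on the log2 scale. This is technical error within an array and not the spread between samples. No pixel of any member's spot was saturated on any array, and no spot carried a quality flag.

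Over the whole table, limma called 6.63% of features at an adjusted p under 0.05, 2.89% as higher and 3.74% as lower in LIPUS. Of the 4 measured members 2 were called, Cpz and Cpe, both higher. Over 20 processing alternatives the call of Cpz held in 20 and that of Cpe in 4. In the 6 fits that left out an array, the call of Cpe held in 0 (limma adjusted p = 0.0560 to 0.141). The groups did not overlap for 3 of the 4 members and for 27.2% of all features. Since the members were chosen with this comparison known, nothing is read from these counts. Over 20 processing alternatives the difference of Cpz ranged from 1.39 to 1.89 and that of Cpe from 0.32 to 0.80.

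A ratio between 2 probes on the same array does not change with a scaling that shifts every gene of the array alike. It can change with other processing, such as the background correction. With the control mean set to 0, the log2 ratio of Cpz over Cpe was 1.30, 1.12 and 0.79 on the LIPUS arrays, against −0.17, 0.15 and 0.03 on the control arrays. Cpz thus stood higher in LIPUS relative to Cpe on all 3 LIPUS arrays, by 1.07 ± 0.25 (SD, n = 3) on average, where the control arrays varied by 0.16 (SD). Relative to Cpd the gap was 1.55 ± 0.17, and relative to Cpq it was 1.79 ± 0.33. Cpe over Cpd read 0.44, 0.39 and 0.60 on the LIPUS arrays and 0.18, −0.04 and −0.14 on the control arrays, also apart. Cpd over Cpq overlapped between the groups, at 0.05 to 0.59 in LIPUS and −0.26 to 0.37 in control.

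**Figure D2:**
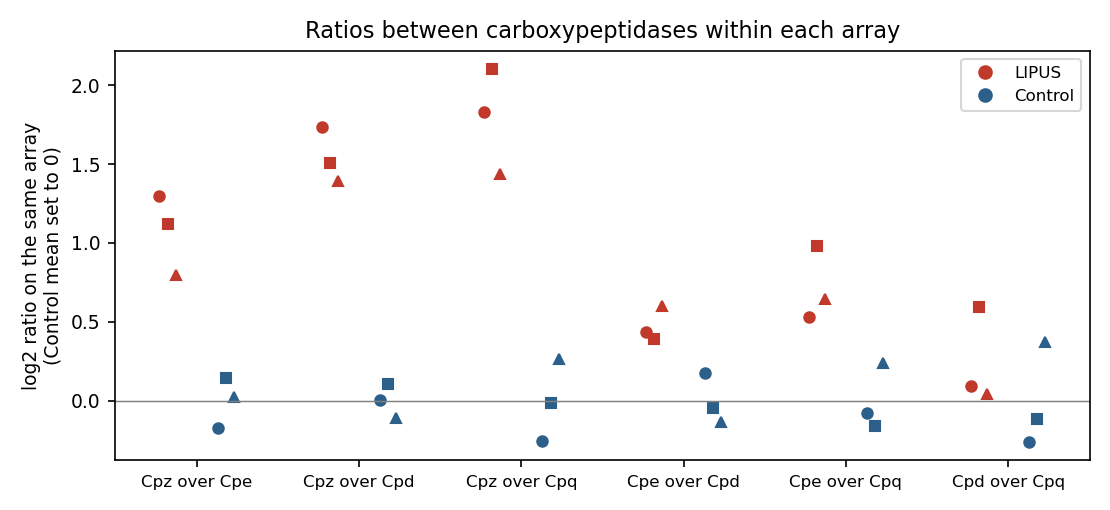
Log2 ratio between each pair of measured carboxypeptidase genes on the same array, with the mean of the control arrays set to 0, LIPUS points left of control points, and a marker for each replicate (circle 1, square 2, triangle 3). The 3 ratios with Cpz on top are 0.79 or higher on every LIPUS array and 0.26 or lower on every control array, while Cpd over Cpq overlaps.

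Scaling moved the level of all genes together, and with it the smaller differences. With arrays scaled to spike-in control spots, RNAs added in fixed amounts, the median of all features moved to −0.32 from 0.03. The difference of Cpz then read 1.39, that of Cpe 0.32, that of Cpd −0.15 and that of Cpq −0.40. Relative to the median of all features these members kept their distances, since a scaling shifts every gene alike. The sign of Cpd and the size of Cpe therefore hold relative to the 75th percentile of the array, and the higher level of Cpz in LIPUS under both scalings.

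**Figure D3:**
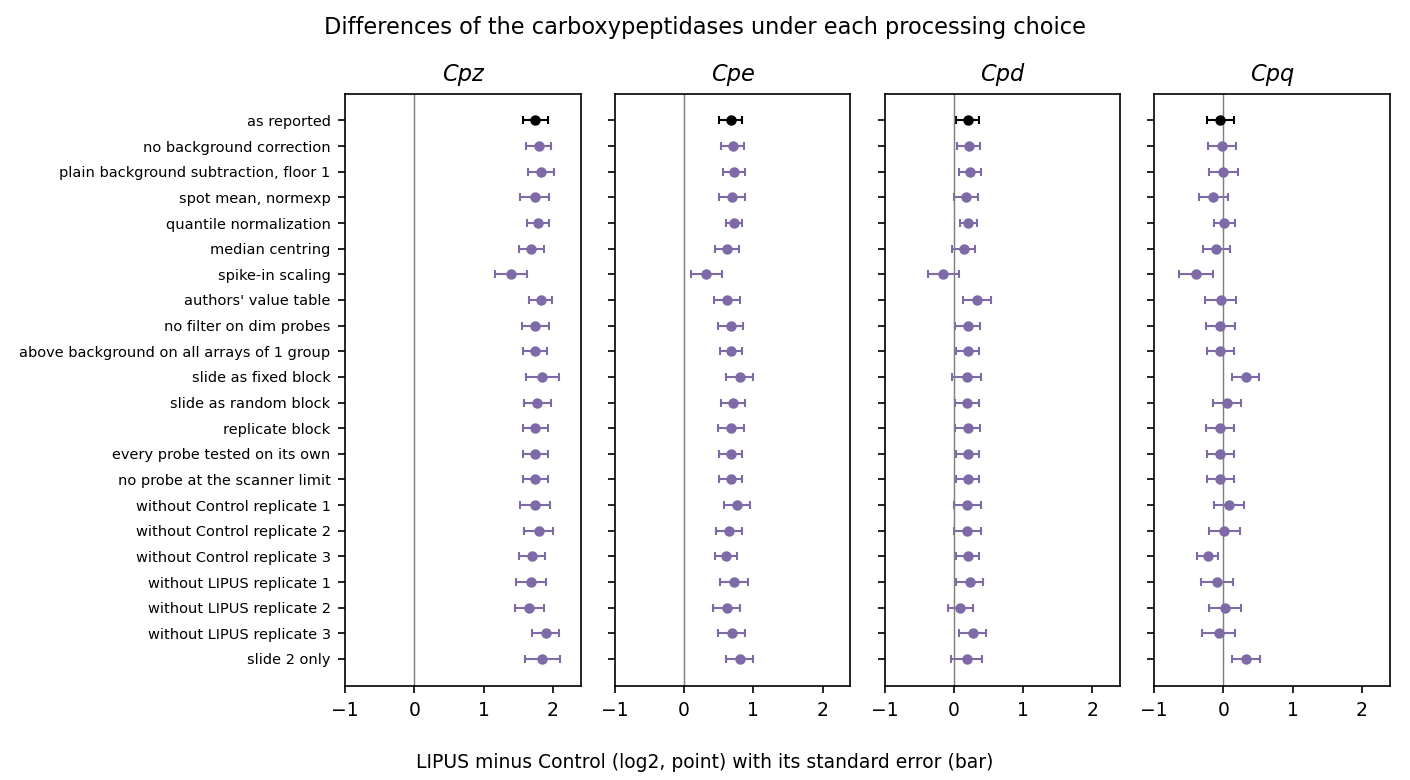
LIPUS minus control difference (log2, points) with its standard error (bars) for the 4 measured carboxypeptidase genes, as reported and under each processing choice. Cpz stays between 1.39 and 1.89 and Cpe between 0.32 and 0.80. Cpd lies below 0 with spike-in scaling alone (−0.15), and Cpq lies on both sides of 0.

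The genes of known symbol whose level over the 6 arrays was most like that of Cpz were Fgf7, Clp1, P3h4, Lman1 and Col11a2, with Pearson r of 0.998, 0.996, 0.996, 0.995 and 0.993 over 6 arrays. Fgf7 encodes a fibroblast growth factor, Clp1 an RNA kinase, Lman1 a cargo receptor between the endoplasmic reticulum and the Golgi, and Col11a2 a chain of cartilage collagen. With both group means removed, r with Cpz was 0.77 to 0.94 for these 5. They were picked for the highest r on these same arrays, so nothing is drawn from this second r. A high r is common on 6 arrays in 2 groups: 2.55% of 5691 genes had an r above 0.95 with Cpz. Their own differences were 0.52 for Fgf7, 0.46 for Clp1, 1.20 for P3h4, 0.87 for Lman1 and 1.51 for Col11a2.

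In gene order on the chromosome, the 3 nearest tested genes on either side of Cpz had differences of −0.43 to 0.48, and limma called 0 of these 6, with 1 at an unadjusted p under 0.05. For the 6 neighbours of Cpe the range was −0.44 to 0.39, with 0 called and 2 at an unadjusted p under 0.05. Among the 6 neighbours of Cpd, limma called Coro6 (1.00, adjusted p = 0.0233), the third after it, and among those of Cpq the adjacent gene Sdc2 (0.66, limma adjusted p = 0.0353). This order skips genes without a tested probe, and these neighbours are named after their values were seen.

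Other genes of the families and routes these enzymes belong to were taken from 8 lists with 151 symbols, of which 97 had a probe with a symbol and 56 were bright enough to test. Of the 56, 3 were called higher (Gal, Pam and Fzd2, the last with 1 control array above background), 5 fell (Penk, C5ar1, C3ar1, C3 and Ctsz) and 48 did not pass. The called share was 14.3%, against 6.63% of all features, and the median difference was 0.11, against 0.03. The 56 passed a filter on brightness in 3 or more arrays, and the lists were written with earlier results of these arrays known, so no property of the lists is drawn from these shares.

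Of the nearest relatives, the other metallocarboxypeptidases of the same family, 6 of 19 had a probe, 1 was bright enough to test and 0 passed, with 0 at an unadjusted p under 0.05 in limma. Of 14 further genes with carboxypeptidase or related activity 4 were tested. Ctsz (NM_183330), which encodes the lysosomal carboxypeptidase cathepsin Z, fell, with 2.52 ± 0.11 in LIPUS and 3.16 ± 0.05 in control, a difference of −0.64 ± 0.15 (SE, limma adjusted p = 0.0389). Its call held in 7 of 20 alternatives and in 1 of 6 that left out an array, the one without control 3. Cndp2, Scpep1 and Ctsa did not pass, at −0.55, −0.50 and 0.24, and Ctsa was at the scanner limit on all 6 arrays.

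A list of genes of prohormone and proprotein processing, not limited to the granule route of Cpe, had 6 tested members of 17. Pam (NM_013000), which encodes the enzyme that amidates peptides after the carboxypeptidase step, rose to 3.97 ± 0.04 in LIPUS, against 3.18 ± 0.09 in control (SD, n = 3 each), a difference of 0.79 ± 0.15 (SE, limma adjusted p = 0.0151). The other 5 did not pass: Pcsk1n, an inhibitor of a prohormone convertase, read 0.71, and the convertase genes Pcsk6, Mbtps1, Furin and Pcsk7 read 0.65, 0.60, 0.20 and −0.07. The median was 0.62, against 0.03 over all features, and 5 of 6 lay above 0, with 1 called. Within slide 2 Pcsk1n, Pcsk6, Mbtps1, Furin and Pcsk7 read 0.45, 0.97, 0.17, 0.21 and 0.07. The call of Pam ended with slide as a fixed block (limma adjusted p = 0.127), without a filter on dim probes (0.0576) and with spike-in scaling (0.180), where it read 0.44, and it held in 1 of 6 fits that left out an array, the one without control 3 (0.0176, against up to 0.0651 in the others). The granule convertase genes Pcsk1 and Pcsk2 and the granin genes Chga, Chgb, Scg2 and Scg3 were too dim to test.

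Precursors of peptides that such enzymes process had 10 tested members of 24, of which 1 rose, 1 fell and 8 did not pass. Gal, the galanin precursor gene, rose by 2.24 ± 0.17 (SE, limma adjusted p = 0.000266), and it stood at 0.99 ± 0.06 in LIPUS and −1.25 ± 0.23 in control (SD, n = 3 each). Penk (NM_017139), which encodes the precursor of the enkephalins, fell to 3.20 ± 0.08 in LIPUS, against 4.51 ± 0.17 in control, a difference of −1.32 ± 0.16 (limma adjusted p = 0.00196). The 2 calls held in 20 of 20 alternatives each. A second probe of Penk that passed the brightness filter read 0.00, so the fall of Penk rests on 1 of 2 probes. Cck, the cholecystokinin gene, read 0.55 and Adm, the adrenomedullin gene, −0.66, and neither passed (limma adjusted p = 0.0822 and 0.0551).

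Kinins and complement anaphylatoxins end in arginine and are substrates of basic carboxypeptidases such as that encoded by Cpm. Of 10 tested genes of these systems 3 fell, 0 rose and 7 did not pass. The receptor gene of anaphylatoxin C5a, C5ar1 (NM_053619), read −0.07 ± 0.29 in LIPUS and 1.39 ± 0.15 in control (SD, n = 3 each), a difference of −1.46 ± 0.19 (SE, limma adjusted p = 0.00255). The C3a receptor gene C3ar1 (NM_032060) differed by −1.39 ± 0.20 (0.00386) and C3 (NM_016994), the source of C3a, by −0.95 ± 0.19 (limma adjusted p = 0.0166). With slide as a fixed block the 3 calls ended (limma adjusted p = 0.0661, 0.0559 and 0.137), as they did in the authors' value table (0.0514, 0.0577 and 0.0745). The call of C3 also ended with plain background subtraction (0.0624) and without a filter on dim probes (0.0552). Leaving out any one of control 1, LIPUS 1 and LIPUS 2 ended it too (up to 0.0740). The kinin receptor genes Bdkrb1 and Bdkrb2 read −0.09 and 0.04 and did not pass.

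Genes for proteins with the cysteine-rich domain that Cpz shares with Frizzled receptors had 7 tested members of 22. Fzd2 (NM_172035), a Wnt receptor gene, was called higher by 1.05 ± 0.19 (SE, limma adjusted p = 0.0120), with −1.04 ± 0.10 in LIPUS and −2.09 ± 0.32 in control (SD, n = 3 each). It was above background on all 3 LIPUS arrays but on 1 control array, so its brightness passed the filter through the LIPUS arrays and its control mean is mostly below background. It read 0.26 in the authors' value table, and lost its call there (limma adjusted p = 0.680), with slide as a fixed block (0.155), with plain background subtraction (0.0536) and without control 1 or LIPUS 2 (up to 0.0526). The other 6 did not pass and read −0.20 to 0.48. Of 19 Wnt genes 2 were tested, Wnt5a at 0.52 and Wnt4 at 0.29, and neither passed (limma adjusted p = 0.201 and 0.543). Among 16 tested genes of other exopeptidases and ectopeptidases of 23 listed, limma called 0, and differences ran from −0.51 to 0.52. Of these 16, 3 had an unadjusted p under 0.05 in limma, against 4828 of all 21850 features.

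**Figure D4:**
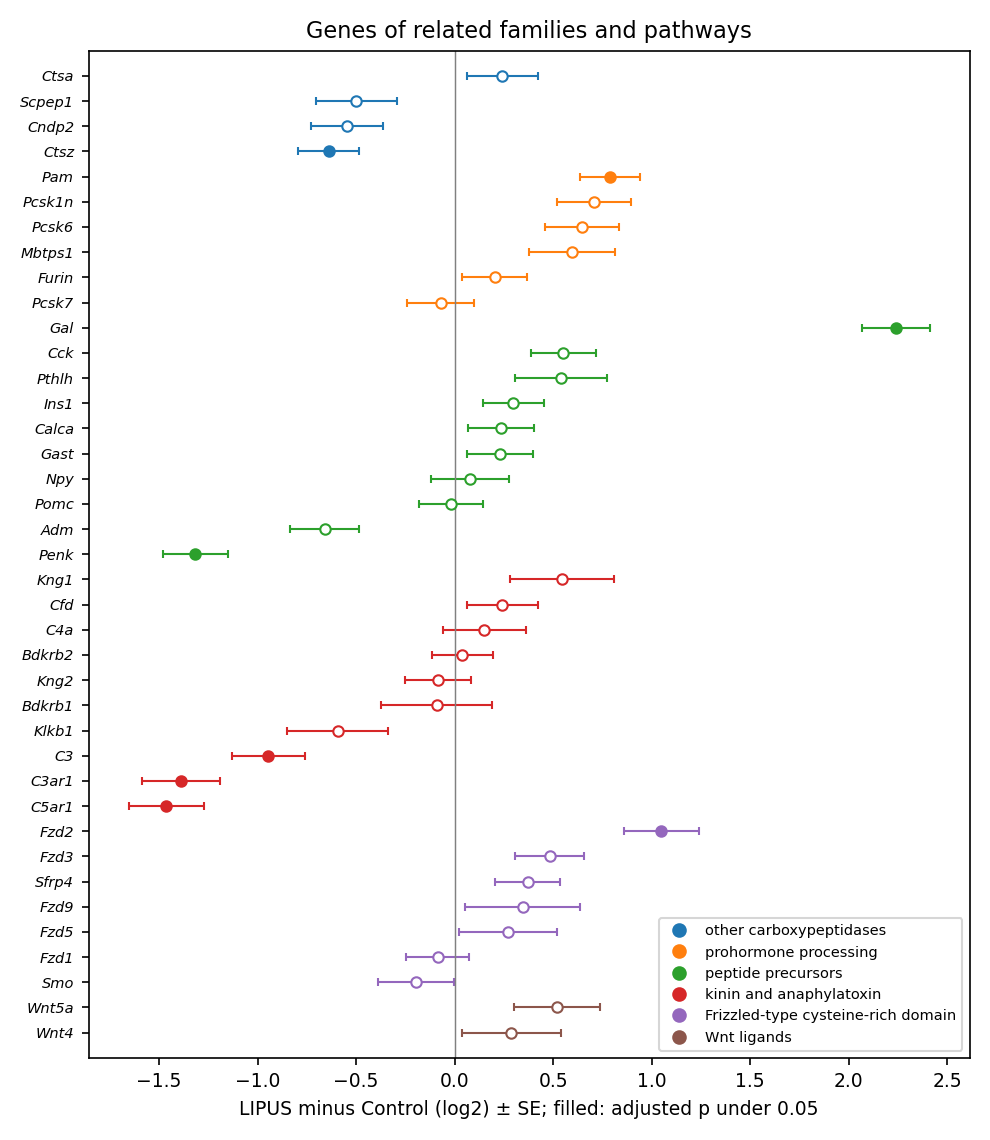
LIPUS minus control difference (log2) with its standard error for each tested gene of 6 lists of related families and pathways, grouped by colour. Filled points passed the threshold over all features: Gal, Pam and Fzd2 to the right of 0 and Penk, C5ar1, C3ar1, C3 and Ctsz to the left.

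Marker genes of 5 cell types that such a culture could hold were read on the same arrays. Over all features 2.89% were called higher and 3.74% lower. Of 12 tested osteoblast markers of 14 listed, 5 rose and 0 fell, with a mean log2 level of 4.53 to 4.70 on the LIPUS arrays and 3.78 to 3.91 on the control arrays. Of the 12, 4 reached the scanner limit on every array and 5 on at least 1 array, and the mean levels include them. Alpl, Ibsp and Sp7, at the limit on no array, read 0.34, 0.53 and 0.18. They did not pass (limma adjusted p = 0.290, 0.113 and 0.685). Of 13 tested macrophage markers of 17 listed, 8 fell and 0 rose, with a mean level of 3.11 to 3.33 in LIPUS and 4.22 to 4.25 in control. Of the 13, 2 reached the scanner limit on every array and 4 on at least 1 array. These 4, C1qb, Lyz2, C1qa and Cd68, are among the markers that did not pass. Of 3 tested endothelial markers of 10 listed 2 fell (mean level −0.83 to −0.54 in LIPUS, 0.40 to 0.55 in control), of 8 mast cell markers of 10 listed 1 fell (0.07 to 0.48 in LIPUS, 0.46 to 0.67 in control), and of 8 adipocyte markers of 10 listed 1 rose (3.23 to 3.31 in LIPUS, 2.99 to 3.07 in control). The part of these shifts in the values of Cpz, Cpe and the related genes was not tested.

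The osteoblast markers with the smallest p were Panx3, a channel gene, at 1.88, Dmp1 and Phex, genes of late osteoblasts and osteocytes, at 1.59 and 1.29, and the sphingomyelinase gene Smpd3 at 1.39, all of them called. Among macrophage markers they were Clec10a at −2.99, Fcgr2b at −2.43, Fcgr3a at −1.58 and Aif1 at −1.54, also called. Esam and Icam2 fell among endothelial markers, by 1.80 and 1.05, and Kdr read −0.60 without passing. Cma1, a mast cell chymase gene, fell by 1.18, while Mcpt1, Hdc and Ms4a2 read −0.73, −0.43 and −0.39 without passing. A second probe of Ms4a2 read 0.21, and of the 8 mast cell markers 3 lay above 0 (Tpsab1, Tpsb2 and Fcer1a, at 0.04 to 0.10) and 5 below. With slide as a fixed block the calls of Cma1, Phex, Esam and Cidec ended (limma adjusted p = 0.0957, 0.101, 0.0552 and 0.124), and in the authors' value table those of Cma1 and Icam2 did (0.102 and 0.110). Icam2 also lost its call without LIPUS 1 (0.0555). Of adipocyte markers the lipid droplet gene Cidec rose by 1.09, and Cebpa read 0.17 without passing. Fabp4 and Cfd were at the scanner limit on 4 and 6 arrays, and the mean level of the list includes them. Cd36, Adipoq, Lpl and Pparg read 0.13, 0.11, −0.07 and −0.12 and did not pass, and a second probe of Lpl read 0.43.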

How the data were processed

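RNA of 6 samples was labelled with Cy3 and put on single-colour arrays, per the labels' protocols. Each deposited spot table gives spot and local background brightness as intensity, per the file headers, not normalized. Saturated pixels are deposited in percent, the quality flag is deposited as a score, and spot positions are scan coordinates. The authors' value table holds processed values on a log2 scale with the 75th percentile at 0; how the authors made it, and the scanner and software, is not given in the sources used here. It served as an alternative.

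Spot medians were background-corrected with limma's normexp (offset 50), put on the log2 scale, averaged over spots of a probe and set relative to the 75th percentile of each array. A probe was above background if its signal passed the 95th percentile of 153 negative controls. Probes above it on 3 or more of 6 arrays were kept (23260), and the brightest probe stood for a symbol. A symbol was found for 10678 of 11138 probes named by curated RefSeq accessions and for 76 of 4210 named by predicted ones. This left 21850 features, of which 5692 were named. The groups were set against each other in limma 3.58.1 in R 4.3.3 (lmFit, eBayes, two-sided, group as the only term), and Benjamini-Hochberg adjustment ran over all features, with calls under 0.05. The fit was tested on simulated data with known differences. Their noise was independent between arrays and held no slide effect, so this test does not cover the slides inferred here. The number of arrays limits the precision.

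Members and lists were chosen with earlier results of these data known. Named genes were the members, called genes of each family or pathway list (up to 6), the 4 genes of each cell type list with the smallest p, and the 5 genes most like Cpz. Alternatives covered background correction, scaling, filters, slide, replicate number, probe choice and leaving out arrays. Probe and protein sequences were not used here. The values of 1 gene of the lists are not reported here.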

Additional observations from a re-analysis of the deposited data

How the results depend on the processing

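Over 20 alternatives the differences of Cpz and Cpe kept their direction. Of 20 named genes of the lists called as reported, 10 kept their call with slide as a fixed block and 13 in the authors' value table. The members are not among these 20. In the same 2 settings Cpz kept its call (limma adjusted p = 0.0313 and 0.0122) and Cpe lost it (0.117 and 0.130). The count of called features, 1449 as reported, was 629 with plain background subtraction, 3719 with spike-in scaling, 805 in the authors' value table, 655 without a filter on dim probes and 282 with slide as a fixed block. Called genes of the 8 related lists, 8 as reported, numbered 5, 14, 3, 5 and 2 in the same order. Higher calls made up 43.6% as reported, 32.3% with median centring and 5.3% with spike-in scaling. Leaving out 1 array gave 642 to 2167 called features and 4 to 14 called list genes, most without control 3; the fewest features were called without control 1, and the fewest list genes without control 1 or LIPUS 2. The members read 1.66 to 1.89 (Cpz), 0.61 to 0.76 (Cpe), 0.10 to 0.27 (Cpd) and −0.23 to 0.08 (Cpq) in those fits. Spike-in scaling moved Cpz to 1.39, Cpe to 0.32, Cpd to −0.15 and Cpq to −0.40, as its shift of all features makes it. The value table gave Cpd 0.33, and slide as a fixed block gave Cpq 0.32. Slide 2 alone, an alternative chosen after seeing the data, has 1 control array, assumed to vary like the LIPUS arrays; limma called 0 features there and 0 list genes, with 3338 features at an unadjusted p under 0.05, and Cpq read 0.32. The fixed block gives the same differences, since control 1 and control 2 are alone on their slide. Among named markers Cebpa (−0.18), Fabp4 (−0.11) and Cfd (−0.11) turned negative with spike-in scaling, and Cfd read −0.77 in the value table. Samples of the same replicate number did not deviate together (r of −0.01 to 0.01 for the 3 pairs), and no LIPUS sample but the second correlated best with its own number; with the replicate block 1175 features and 7 list genes were called, and the members' differences were the same. Apart from shifts shown by a setting's own construction, the cause was not tested.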
